A study of Homo sapiens with 8 samples.

Results

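The genes described here encode the SR proteins, the heterogeneous nuclear ribonucleoproteins (hnRNPs), the transformer-2 factors TRA2A and TRA2B, and the CLK kinases, followed in HL60 and Kasumi-1 leukaemia cells with and without cinobufagin. Members were all gene rows whose symbol starts with SRSF or HNRNP, plus CLK1, CLK2, CLK3, CLK4, TRA2A and TRA2B, without read-through or antisense symbols (those with a hyphen) and without pseudogenes. This gave 38 of the 25593 rows of the table, namely 12 SRSF genes, 20 hnRNP genes, 4 CLK genes and 2 TRA2 genes. Of these, 36 reached an FPKM (fragments per kilobase of transcript, scaled to the mapped fragments of the library) of 1 in at least 2 of the 8 libraries and were tested, as were 12511 genes in all. SRSF12 stayed at or below 0.352 FPKM and HNRNPCL1 at or below 0.321 FPKM in every library, and neither was tested.

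The study held 4 groups of 2 RNA sequencing libraries, namely HL60 with 100 nM cinobufagin, untreated HL60, Kasumi-1 with 100 nM cinobufagin and untreated Kasumi-1, with drug exposure lasting 24 h. Cinobufagin is a bufadienolide of toad venom that inhibits the Na+/K+-ATPase. HL60 is an established line of promyelocytic leukaemia cells and Kasumi-1 an established line that carries the RUNX1-RUNX1T1 fusion, and each condition rests on a single line. HL60 was grown in 10% fetal bovine serum and Kasumi-1 in 20%, so line and serum cannot be told apart. The labels name no vehicle for the untreated cells, nor do they state that replicate libraries stem from different cultures. The p-values therefore describe the spread among the libraries at hand, and that spread may be technical.

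SR proteins carry RNA recognition motifs and a domain rich in arginine and serine, bind mainly exonic enhancers and favour the use of the exons they bind. The hnRNPs coat nascent pre-mRNA and often silence splice sites, so exon choice depends on the balance of the families. CLK kinases phosphorylate the arginine-serine domain in the nucleus and release SR proteins from speckles. Many of these genes limit their own output through poison exons or retained introns, and the gene-level FPKM used here does not separate such transcripts from those that encode full-length protein.

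Markers of Kasumi-1 separated the lines as labelled. Every Kasumi-1 library had at least 16.1 FPKM of RUNX1T1, 43.3 of CD34 and 87.5 of TRH, while each HL60 library listed all of them at 0. KIT was at 133.8 FPKM or more in Kasumi-1 and below 1 FPKM in HL60. The promyelocyte markers MPO, ELANE, PRTN3 and AZU1 were higher in untreated Kasumi-1 than in untreated HL60. They therefore did not set HL60 apart. MPO was at 3285 and 3369 FPKM in untreated HL60, against 6013 and 6098 FPKM in untreated Kasumi-1. In treated HL60 it fell to 245 and 274 FPKM, and ELANE, PRTN3 and AZU1 fell as well. Of 15 markers of erythroid, lymphoid, fibroblast and epithelial cells, the highest value in any library was 3.41 FPKM (CD79A), and HBB, MS4A1, COL3A1 and KRT19 were at 0 throughout. Between 10623 and 11371 genes per library reached 1 FPKM, and the replicates of a group correlated across genes with Pearson's r of at least 0.9955 on the log2 scale, short RNAs aside. Replicate numbers left a mark across the whole table, the members included. Deviations of same-numbered libraries correlated between groups with r between 0.274 and 0.431, short RNAs aside. The small nucleolar RNA SNORD50A was at 0 in every replicate 1 and at 45595.6 FPKM or more in every replicate 2. In all 4 groups replicate 1 was higher for 14 of the 36 tested members, among them CLK1, CLK2, CLK3, SRSF5 and HNRNPH2. Replicate 2 was higher for 6 (HNRNPA1, HNRNPL, HNRNPU, SRSF3, SRSF10 and TRA2B). Such a split was not counted over all genes. The part of this split in the results below was not tested beyond the changes within each number that are given there. FPKM is scaled within a library, so rises and falls are relative to other genes, and in these bulk samples fewer cells of a type and less RNA per cell cannot be told apart.

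In HL60, cinobufagin redistributed the members in both directions. The kinases CLK1, CLK3 and CLK4, the F/H group of hnRNPs and HNRNPK, HNRNPM and HNRNPA2B1 rose, while HNRNPA1, HNRNPA3, HNRNPD, SRSF7 and SRSF8 fell. In all, 15 of the 36 tested members rose and 11 fell (limma on log2(FPKM + 1), Benjamini-Hochberg adjusted p under 0.05 over all genes), or 72.2%, against 73.6% of all tested genes, so the share called was near that of the whole table. Rises took 41.7% of the members and 36% of all genes, and falls 30.6% and 37.6%. The members' median log2 change was 0.11, against −0.01 for all genes. At least 2-fold changes were seen for 6 called members, namely CLK1, CLK3, CLK4, HNRNPA1, HNRNPA1L2 and HNRNPH2. Those of HNRNPA1L2 and HNRNPH2 are uncertain, as described below. Changes of that size were not counted over all genes in either line.

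In Kasumi-1, falls prevailed and were small. SRSF1, SRSF2, SRSF3, SRSF7, SRSF8, SRSF9, SRSF10, both TRA2 genes and 8 hnRNPs fell, and CLK1, CLK4 and HNRNPH1 rose. This was 17 falls and 3 rises, or 55.6% of the 36 members, against 26.3% of all tested genes. Falls took 47.2% of the members and 16.2% of all genes, and rises 8.3% and 10.1%. Rises made up 38.5% of the calls over all genes in this line, and 51.7% after median ratio rescaling, under which 17 members fell and 4 rose. The members' median log2 change was −0.17, against −0.04 for all genes, and 0 called members changed 2-fold. The members are abundant transcripts, with a median of 92.9 FPKM against 9.85 FPKM for all tested genes, and among the 9577 genes that reached 5 FPKM in at least 2 libraries 30.5% were called, 18.3% as falls. When the 4 Kasumi-1 libraries were fitted alone, only 7 members fell and 2 rose. The calls that ended in that fit were those of SRSF1, SRSF3, SRSF8, SRSF10, TRA2B, HNRNPA1, HNRNPA1L2, HNRNPAB, HNRNPC, HNRNPH1 and HNRNPU (limma adjusted p between 0.0516 and 0.121).

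**Figure D1:**
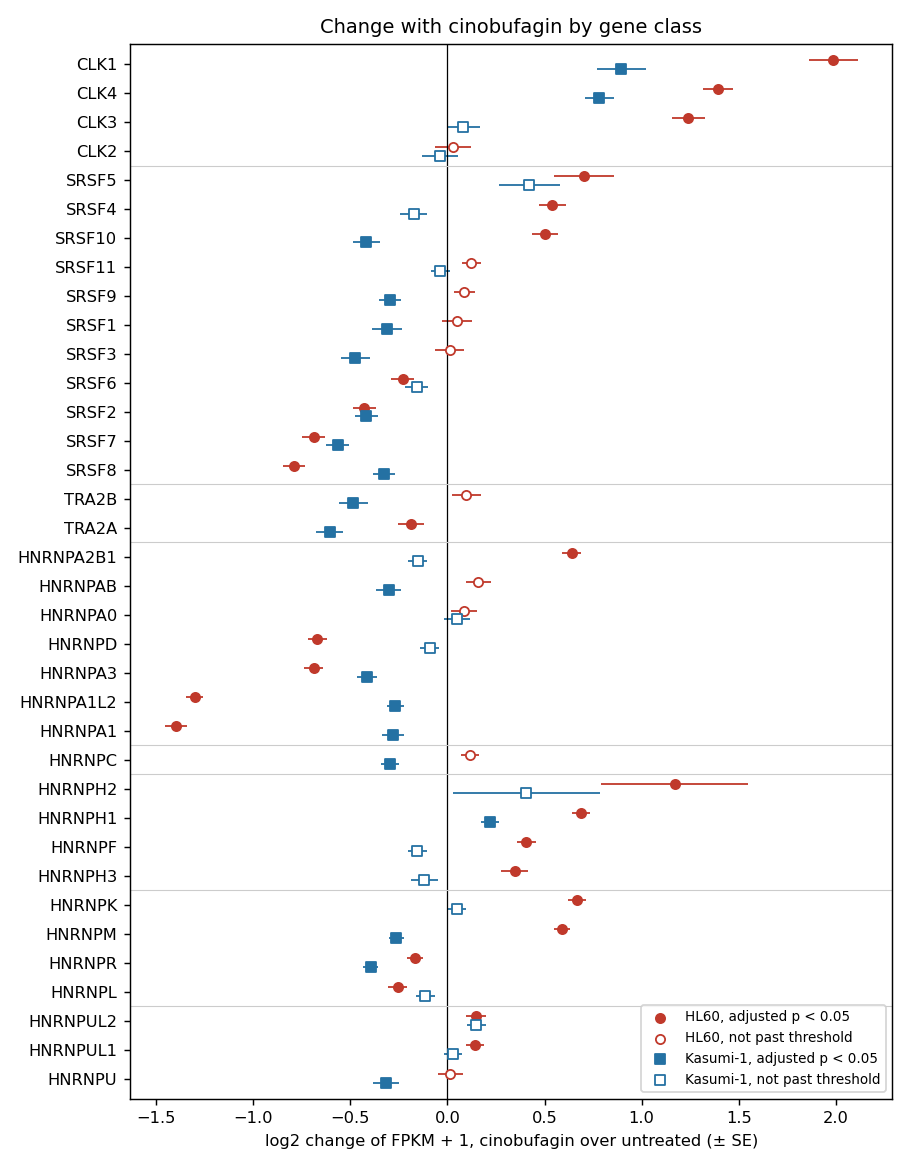
Log2 change of FPKM + 1, cinobufagin over untreated, for the 36 tested genes, grouped by class, in HL60 (red circles) and Kasumi-1 (blue squares), with bars of 1 SE and filled symbols where the adjusted p was under 0.05. CLK1 lies farthest to the right in both lines, at 1.99 and 0.89, and HNRNPA1 farthest to the left in HL60, at −1.40.

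The CLK kinases held the largest rise of either line. CLK1 stood at 153 and 131 FPKM in treated HL60, against 36.7 and 33.4 FPKM in untreated HL60, and at 123 and 106 FPKM in treated Kasumi-1, against 66.9 and 55.7 FPKM in untreated Kasumi-1. Treated and untreated libraries did not overlap in either line. The log2 change was 1.99 in HL60 (SE 0.13, limma adjusted p = 1.43e-05) and 0.89 in Kasumi-1 (SE 0.13, limma adjusted p = 0.00517), and within replicate 1 and replicate 2 it was 2.03 and 1.94 in HL60 and 0.88 and 0.91 in Kasumi-1. CLK4, the closest relative of CLK1, reached 20.3 and 17.9 FPKM in treated HL60, against 6.52 and 6.77 FPKM in untreated HL60, and 12.0 and 12.1 FPKM in treated Kasumi-1, against 6.85 and 6.31 FPKM in untreated Kasumi-1. It thus rose in both lines, by 1.39 (SE 0.08, limma adjusted p = 7.16e-06) and 0.78 (SE 0.08, limma adjusted p = 0.00213).

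The other CLK genes differed from this pattern. CLK3, which is also abundant in testis, stood at 62.6 and 55.8 FPKM in treated HL60, against 25.9 and 23.1 FPKM in untreated HL60, and thus rose by 1.24 (SE 0.09, limma adjusted p = 2.2e-05). In Kasumi-1 its treated libraries, at 28.3 and 26.6 FPKM, overlapped the untreated ones, at 27.1 and 24.7 FPKM (limma adjusted p = 0.532). CLK2 did not pass in either line, with 38.0 and 32.2 FPKM in treated HL60 against 35.9 and 32.8 FPKM in untreated HL60, and with 30.3 and 29.2 FPKM in treated Kasumi-1 against 31.9 and 29.2 FPKM in its untreated libraries. Of the summed FPKM of the 4 kinase genes, CLK1 took 55.9% and 55.3% in treated HL60, against 34.9% and 34.8% in untreated HL60, and 63.6% and 60.9% in treated Kasumi-1, against 50.4% and 48.0% in untreated Kasumi-1. The rises of CLK1, CLK3 and CLK4 were larger in HL60, since the change in Kasumi-1 minus that in HL60 was −1.09, −1.16 and −0.61 (limma adjusted p = 0.00204, 0.000301 and 0.00269).

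**Figure D2:**
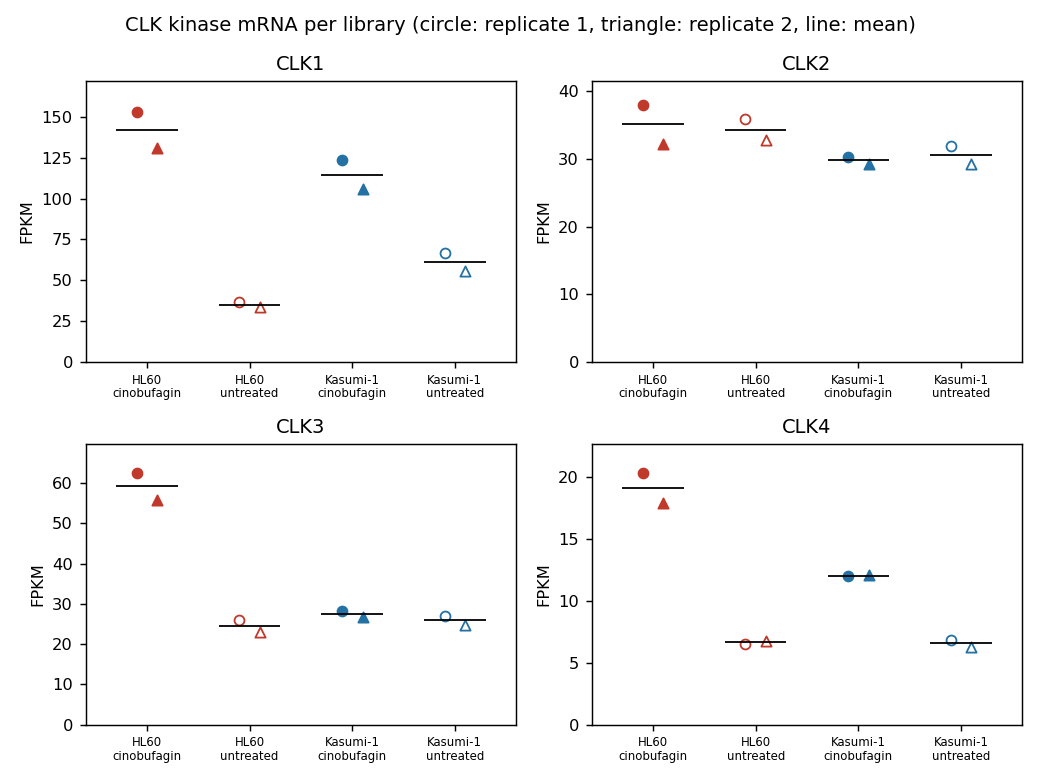
FPKM of the 4 CLK genes in each library, with the mean of each group as a line, treated (filled) left of untreated (open) in each line. All treated libraries lie above all untreated ones for CLK1 and CLK4 in both lines, for CLK3 in HL60 only, and for CLK2 in neither.

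The 250 bases before the transcription start of CLK1 and CLK4 are printed because these genes rose together in both lines. Both come from RefSeq promoters on build GRCh38.p14, minus strand, at chr2:200864659-200864908 for the more upstream of 2 listed CLK1 starts and at chr5:178627051-178627300 for CLK4. The authors' values rest on hg19, and no coordinates were carried over. Capitals mark CACGTG, the E-box core that MYC-MAX dimers recognise, which is the same on both strands. It lies 111 bases before the CLK4 start, and the CLK1 window does not hold these letters.
CLK1: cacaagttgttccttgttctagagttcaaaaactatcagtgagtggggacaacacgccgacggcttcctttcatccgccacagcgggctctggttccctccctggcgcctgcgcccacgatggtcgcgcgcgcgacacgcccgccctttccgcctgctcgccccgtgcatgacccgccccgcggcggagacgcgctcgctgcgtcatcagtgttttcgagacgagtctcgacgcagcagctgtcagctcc
CLK4: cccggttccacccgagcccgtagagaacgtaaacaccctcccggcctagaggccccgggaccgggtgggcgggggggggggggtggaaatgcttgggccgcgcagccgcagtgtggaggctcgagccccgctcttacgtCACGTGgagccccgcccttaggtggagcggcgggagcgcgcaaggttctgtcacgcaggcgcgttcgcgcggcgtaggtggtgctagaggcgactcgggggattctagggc

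SR proteins split in HL60, where SRSF4, SRSF5 and SRSF10 rose and SRSF2, SRSF6, SRSF7 and SRSF8 fell among 11 tested, so 63.6% were called, against 73.6% of all genes. SRSF5 was at 169 and 143 FPKM in treated HL60, against 104 and 86.9 FPKM in untreated HL60. The rise of 0.70 (SE 0.16, limma adjusted p = 0.00562) was alike within replicate 1, at 0.69, and replicate 2, at 0.71. SRSF10, which turns into a general splicing repressor when dephosphorylated after heat shock, was at 86.5 and 89.4 FPKM in treated HL60, against 60.1 and 63.5 FPKM in untreated HL60 (log2 change 0.50, SE 0.07, limma adjusted p = 0.000583). SRSF4 followed, at 56.4 and 53.1 FPKM in treated HL60 against 38.0 and 36.8 FPKM in untreated HL60 (log2 change 0.54, SE 0.07, limma adjusted p = 0.000414). The treated libraries of these 3 genes lay above all untreated ones.

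The SR genes that fell in HL60 included an export adaptor and a gene pair that shares sequence. SRSF7, which also serves as an adaptor for mRNA export, was at 58.4 and 53.7 FPKM in treated HL60, against 93.6 and 88.3 FPKM in untreated HL60 (log2 change −0.69, SE 0.06, limma adjusted p = 6.72e-05). SRSF2, a component of nuclear speckles, was at 112 and 101 FPKM in treated HL60, against 145 and 141 FPKM in untreated HL60 (log2 change −0.43, SE 0.06, limma adjusted p = 0.000591). SRSF8 arose as a retrotransposed copy of SRSF2, so their reads may be shared and its value is uncertain. It was at 5.97 and 5.95 FPKM in treated HL60, against 10.8 and 11.3 FPKM in untreated HL60, a change of −0.79 (limma adjusted p = 2.47e-05). SRSF6 fell by 0.23, a call that ended without untreated HL60 replicate 1 (limma adjusted p = 0.0572). The ratio of SRSF5 to SRSF2 levels was 1.51 and 1.42 in treated HL60, against 0.719 and 0.615 in untreated HL60, and 1.45 and 1.21 in treated Kasumi-1, against 0.814 and 0.670 in untreated Kasumi-1.

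SRSF1, SRSF3, SRSF9 and SRSF11 did not pass in HL60. SRSF1, the founding SR protein and a known oncoprotein, was at 80.7 and 77.8 FPKM in treated HL60, against 76.3 and 76.6 FPKM in untreated HL60 (limma adjusted p = 0.592). SRSF3, the smallest SR protein, was at 114 and 118 FPKM in treated HL60, against 112 and 119 FPKM in untreated HL60, and these groups overlapped. MYC, the gene named in the series title, fell to 30.3 and 29.2 FPKM in the same treated libraries, against 786 and 749 FPKM in untreated HL60. It also fell in Kasumi-1, to 199 and 202 FPKM in treated cells, against 308 and 310 FPKM in untreated cells (log2 change −0.62, limma adjusted p = 0.00124). A link between MYC and the members was not tested.

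In Kasumi-1, 7 of the 11 SR genes fell (63.6%, against 16.2% of all genes), 0 rose (against 10.1%) and 4 did not pass. At an unadjusted p under 0.05, 9 were lower and 1 was higher, with no share over all genes to set beside them. SRSF7 fell most, to 50.9 and 48.5 FPKM in treated Kasumi-1, against 75.6 and 72.5 FPKM in untreated Kasumi-1 (log2 change −0.56, SE 0.06, limma adjusted p = 0.00263). SRSF3 was at 85.9 and 94.1 FPKM in treated Kasumi-1, against 119 and 132 FPKM in untreated Kasumi-1 (log2 change −0.47, SE 0.07, limma adjusted p = 0.00685). SRSF2 was at 137 and 134 FPKM in treated Kasumi-1, against 182 and 181 FPKM in untreated Kasumi-1, a change of −0.42 beside one of −0.43 in HL60 (difference 0.01, SE 0.08, limma adjusted p = 0.924). Each of these genes had all treated libraries below the untreated ones.

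SRSF10 moved in opposite directions in the lines. It fell to 35.0 and 36.4 FPKM in treated Kasumi-1, against 45.2 and 51.2 FPKM in untreated Kasumi-1 (log2 change −0.42, SE 0.07, limma adjusted p = 0.00848), while it rose in HL60, and the difference of −0.92 passed (SE 0.10, limma adjusted p = 0.000306). The fall was not called with Kasumi-1 fitted alone (limma adjusted p = 0.0592). SRSF4 rose in HL60 and was at 31.7 and 29.9 FPKM in treated Kasumi-1, against 36.9 and 32.9 FPKM in untreated Kasumi-1, which did not pass (limma adjusted p = 0.114). The difference between its changes did pass, at −0.71 (SE 0.10, limma adjusted p = 0.000945). SRSF5 was at 199 and 163 FPKM in treated Kasumi-1, against 148 and 121 FPKM in the untreated cells of that line, and was not called (log2 change 0.42, SE 0.16, limma adjusted p = 0.0921), although its groups did not overlap and its change was 0.43 within replicate 1 and 0.42 within replicate 2.

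The remaining falls of SR genes in Kasumi-1 were −0.31 for SRSF1, −0.30 for SRSF9 and −0.33 for SRSF8 (limma adjusted p = 0.0314, 0.012 and 0.00992). Leaving out 1 library ended the SRSF1 call in 6 of 8 cases, namely each HL60 library, treated Kasumi-1 replicate 1 and untreated Kasumi-1 replicate 2 (limma adjusted p between 0.0561 and 0.131). The SRSF9 call ended without treated replicate 1 or either untreated Kasumi-1 library (0.054 to 0.0586), and that of SRSF8 without untreated replicate 1 (0.0533). SRSF6 and SRSF11 did not pass in Kasumi-1.

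TRA2A and TRA2B, human homologues of the Drosophila splicing factor transformer-2 that bind exonic enhancers, fell in Kasumi-1. TRA2A was at 29.4 and 28.1 FPKM in treated Kasumi-1, against 45.5 and 43.1 FPKM in untreated Kasumi-1, the largest fall of any tested member in this line (log2 change −0.61, SE 0.07, limma adjusted p = 0.00286). TRA2B was at 32.2 and 35.5 FPKM in treated Kasumi-1, against 45.2 and 50.3 FPKM in untreated Kasumi-1 (log2 change −0.48, SE 0.07, limma adjusted p = 0.00664). In HL60, TRA2B was at 56.4 and 56.7 FPKM in treated cells, against 51.0 and 54.6 FPKM in untreated cells (limma adjusted p = 0.272). TRA2A was at 33.2 and 29.6 FPKM in treated HL60, against 36.7 and 35.0 FPKM in untreated HL60, a fall by 0.19 (limma adjusted p = 0.0416) whose call ended without any single library other than treated HL60 replicate 1 (0.0553 to 0.209), as well as after median ratio rescaling (0.123), with HL60 alone (0.088), without the intensity trend (0.0551) and without the filter (0.0558). The changes of TRA2A and TRA2B were lower in Kasumi-1 than in HL60, by −0.42 and −0.58 (limma adjusted p = 0.00881 and 0.00315).

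**Figure D3:**
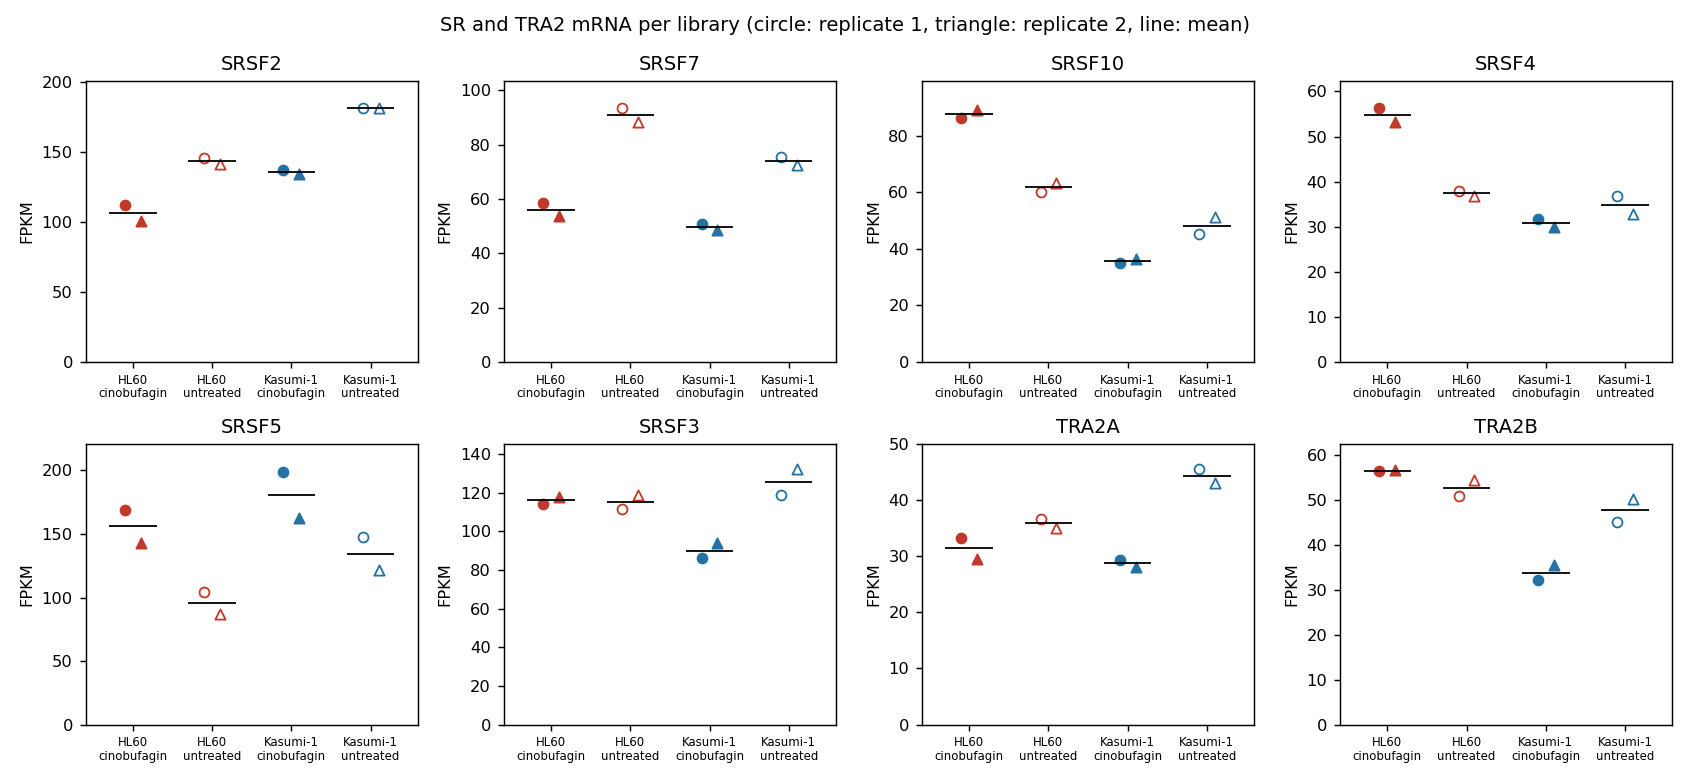
FPKM of 6 SR genes and both TRA2 genes in each library, treated (filled) left of untreated (open), HL60 in red and Kasumi-1 in blue, with group means as lines. SRSF2 and SRSF7 are lower with drug in both lines, SRSF10 is higher in treated HL60 and lower in treated Kasumi-1, and TRA2B is lower with drug in Kasumi-1 but not in HL60.

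Among the A/B and D type hnRNPs, 4 of 7 fell in HL60 and HNRNPA2B1 rose, which is 71.4% called, against 73.6% of all genes, and 57.1% falling, against 37.6%. HNRNPA1, a shuttling silencer of splice sites and the most abundant member in untreated cells of both lines, was at 391.5 and 409.2 FPKM in treated HL60, against 1046 and 1066 FPKM in untreated HL60 (log2 change −1.40, SE 0.06, limma adjusted p = 2.38e-06). Its partner in the core hnRNP particle, HNRNPA2B1, was at 508 and 497 FPKM in treated HL60, against 329 and 315 FPKM in untreated HL60 (log2 change 0.64, SE 0.05, limma adjusted p = 3.49e-05). The groups did not overlap for either gene, and the order of the 2 levels turned round. The ratio of HNRNPA1 to HNRNPA2B1 was 0.771 and 0.823 in treated HL60, against 3.18 and 3.39 in untreated HL60. It was 1.91 and 2.04 in treated Kasumi-1, against 2.11 and 2.21 in untreated Kasumi-1. HNRNPA1 supplied 10.99% and 11.65% of the summed FPKM of the 20 hnRNP genes in treated HL60, against 28.1% and 28.9% in untreated HL60.

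The summed FPKM of the hnRNP genes itself was 3564 and 3513 in treated HL60, against 3724 and 3695 in untreated HL60, and 3249 and 3285 in treated Kasumi-1, against 3641 and 3664 in untreated Kasumi-1. HNRNPA1L2 is a retrotransposed copy of HNRNPA1, and the pseudogene row HNRNPA1P10 ran beside it. HNRNPA1L2 stood at 7.15% to 8.43% and HNRNPA1P10 at 18.3% to 20.1% of the HNRNPA1 level in all 8 libraries, and the fall of HNRNPA1L2 by 1.30 in HL60 is uncertain as a change of its own. Reads may be shared between the copies, which was not tested. HNRNPA3, a close relative, was at 76.5 and 75.4 FPKM in treated HL60, against 121 and 125 FPKM in untreated HL60 (log2 change −0.69, SE 0.05, limma adjusted p = 2.73e-05). HNRNPD, known as AUF1, which binds AU-rich elements and promotes mRNA decay, was at 134 and 125 FPKM in treated HL60, against 208 and 205 FPKM in untreated HL60 (log2 change −0.67, SE 0.05, limma adjusted p = 2.67e-05). HNRNPAB and HNRNPA0 did not pass in HL60.

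In Kasumi-1 the same class had 4 falls and 0 rises among 7 (57.1% called, against 26.3% of all genes), with 5 lower and 0 higher at an unadjusted p under 0.05. HNRNPA1 was at 705 and 737 FPKM in treated Kasumi-1, against 861 and 888 FPKM in untreated Kasumi-1 (log2 change −0.28, SE 0.06, limma adjusted p = 0.0168). That call ended without treated Kasumi-1 replicate 1 or either untreated Kasumi-1 library (limma adjusted p between 0.058 and 0.0818). HNRNPA3 was at 104 and 112 FPKM in treated Kasumi-1, against 141 and 147 FPKM in untreated Kasumi-1 (log2 change −0.41, SE 0.05, limma adjusted p = 0.00348). HNRNPAB fell by 0.30 (limma adjusted p = 0.0197), a call that ended without either treated library or untreated replicate 1 of Kasumi-1 (0.0697 to 0.0949), and HNRNPA1L2 fell by 0.27.

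HNRNPA2B1 and HNRNPD were not called in Kasumi-1. HNRNPA2B1 was at 368 and 361 FPKM in treated Kasumi-1, against 408 and 402 FPKM in untreated Kasumi-1 (log2 change −0.15, SE 0.05, limma adjusted p = 0.0667). Its response differed between the lines by −0.79 (SE 0.07, limma adjusted p = 0.00014), and that of HNRNPA1 by 1.12 (SE 0.08, limma adjusted p = 6.34e-05). HNRNPD was at 176 and 178 FPKM in treated Kasumi-1, against 187 and 190 FPKM in the untreated cells of that line, and its response differed by 0.58 (limma adjusted p = 0.000515). The response of HNRNPA3 differed by 0.28 (limma adjusted p = 0.0142), a call that ended without untreated HL60 replicate 2 (0.0505).

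The F/H hnRNPs, which bind runs of guanines, rose in HL60 in 4 of 4 cases, where 36% of all genes rose. HNRNPH1 was at 343 and 332 FPKM in treated HL60, against 213 and 206 FPKM in untreated HL60 (log2 change 0.69, SE 0.05, limma adjusted p = 1.84e-05). HNRNPF was at 231 and 231 FPKM in treated HL60, against 177 and 171 FPKM in untreated HL60 (log2 change 0.41, SE 0.05, limma adjusted p = 0.000304). HNRNPH3 rose by 0.35 (SE 0.07, limma adjusted p = 0.00387). The treated libraries of all 3 genes lay above the untreated ones.

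HNRNPH2 was less certain. It was at 30.04 and 20.81 FPKM in treated HL60, against 11.8 and 9.42 FPKM in untreated HL60 (log2 change 1.17, SE 0.38, limma adjusted p = 0.028), and the call ended without treated replicate 1 or either untreated HL60 library (0.0588 to 0.146). A read-through row that joins it to RPL36A, and can share its reads, stood at 57.4 and 67.0 FPKM in treated HL60, against 30.5 and 31.1 FPKM in untreated HL60. In Kasumi-1, HNRNPH1 was at 268 and 269 FPKM in treated cells, against 229 and 232 FPKM in untreated cells, a rise of 0.22 (limma adjusted p = 0.0179). This call ended without any one of the 4 Kasumi-1 libraries (0.0649 to 0.0822). HNRNPF, HNRNPH2 and HNRNPH3 were not called in Kasumi-1, and the responses of HNRNPF, HNRNPH1 and HNRNPH3 differed between the lines by −0.56, −0.47 and −0.46 (limma adjusted p = 0.000589, 0.001 and 0.00649).

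HNRNPK and HNRNPM rose in HL60, and HNRNPL and HNRNPR fell. HNRNPK, which binds cytosine-rich RNA and DNA, was at 430 and 427 FPKM in treated HL60, against 272 and 268 FPKM in untreated HL60 (log2 change 0.67, SE 0.04, limma adjusted p = 1.82e-05). In Kasumi-1 it was at 311 and 302 FPKM in treated cells, against 298 and 294 FPKM in untreated cells (limma adjusted p = 0.468), and the difference between the lines was −0.62 (limma adjusted p = 0.00026). HNRNPM, a regulator of alternative exons, was at 211 and 212 FPKM in treated HL60, against 141 and 139 FPKM in untreated HL60 (log2 change 0.59, SE 0.04, limma adjusted p = 1.84e-05). It fell in Kasumi-1, to 128 and 129 FPKM in treated cells, against 155 and 155 FPKM in untreated cells (log2 change −0.26, SE 0.04, limma adjusted p = 0.00633). In the joint fit, which leaves out replicate number, HNRNPM and SRSF10 were the only members called in opposite directions in the lines. For HNRNPM the difference was −0.85 (SE 0.06, limma adjusted p = 4.21e-05). With replicate number in the fit, HNRNPA2B1, HNRNPF, HNRNPH3, SRSF4, HNRNPAB and HNRNPC were also called as rises in HL60 and falls in Kasumi-1.

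HNRNPR, a relative of SYNCRIP, was at 91.8 and 92.6 FPKM in treated HL60, against 105 and 102 FPKM in untreated HL60 (log2 change −0.17), and at 81.1 and 81.1 FPKM in treated Kasumi-1, against 108 and 106 FPKM in untreated Kasumi-1 (log2 change −0.39, limma adjusted p = 0.00232). The HL60 call ended without untreated HL60 replicate 1 (limma adjusted p = 0.0529) and after median ratio rescaling (0.0565, log2 change −0.11). HNRNPL, which binds CA repeats, was at 143 and 149 FPKM in treated HL60, against 171 and 178 FPKM in untreated HL60 (log2 change −0.26, limma adjusted p = 0.00289), and did not pass in Kasumi-1.

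HNRNPC, HNRNPU and their relatives moved little in HL60. HNRNPC, which binds uridine tracts and wraps nascent RNA, was at 254 and 251 FPKM in treated HL60, against 237 and 230 FPKM in untreated HL60 (limma adjusted p = 0.0636), and at 208 and 201 FPKM in treated Kasumi-1, against 256 and 246 FPKM in untreated Kasumi-1. It fell in Kasumi-1 by 0.29 on the log2 scale (SE 0.05, limma adjusted p = 0.00767). HNRNPU, also known as scaffold attachment factor A, was at 116 and 117 FPKM in treated HL60, against 112 and 118 FPKM in untreated HL60, and at 86.9 and 96.6 FPKM in treated Kasumi-1, against 111 and 118 FPKM in untreated Kasumi-1 (log2 change −0.32, limma adjusted p = 0.0171). Without treated Kasumi-1 replicate 1 or untreated Kasumi-1 replicate 2 that call ended (0.0678 to 0.0846).

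HNRNPUL1 and HNRNPUL2, paralogues of HNRNPU, rose in HL60 by 0.14 and 0.15 (limma adjusted p = 0.029 and 0.033). The HNRNPUL1 call ended without any of the 4 HL60 libraries (0.076 to 0.118), and that of HNRNPUL2 without treated HL60 replicate 1 or 2, untreated HL60 replicate 2 or either untreated Kasumi-1 library (0.0524 to 0.187). After quantile normalization their changes were 0.04 and 0.04 (limma adjusted p = 0.5 and 0.505), and neither was called after equal sum rescaling (0.208 and 0.13). HNRNPUL2 also shares sequence with a read-through row to BSCL2. Neither paralogue was called in Kasumi-1.

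**Figure D4:**
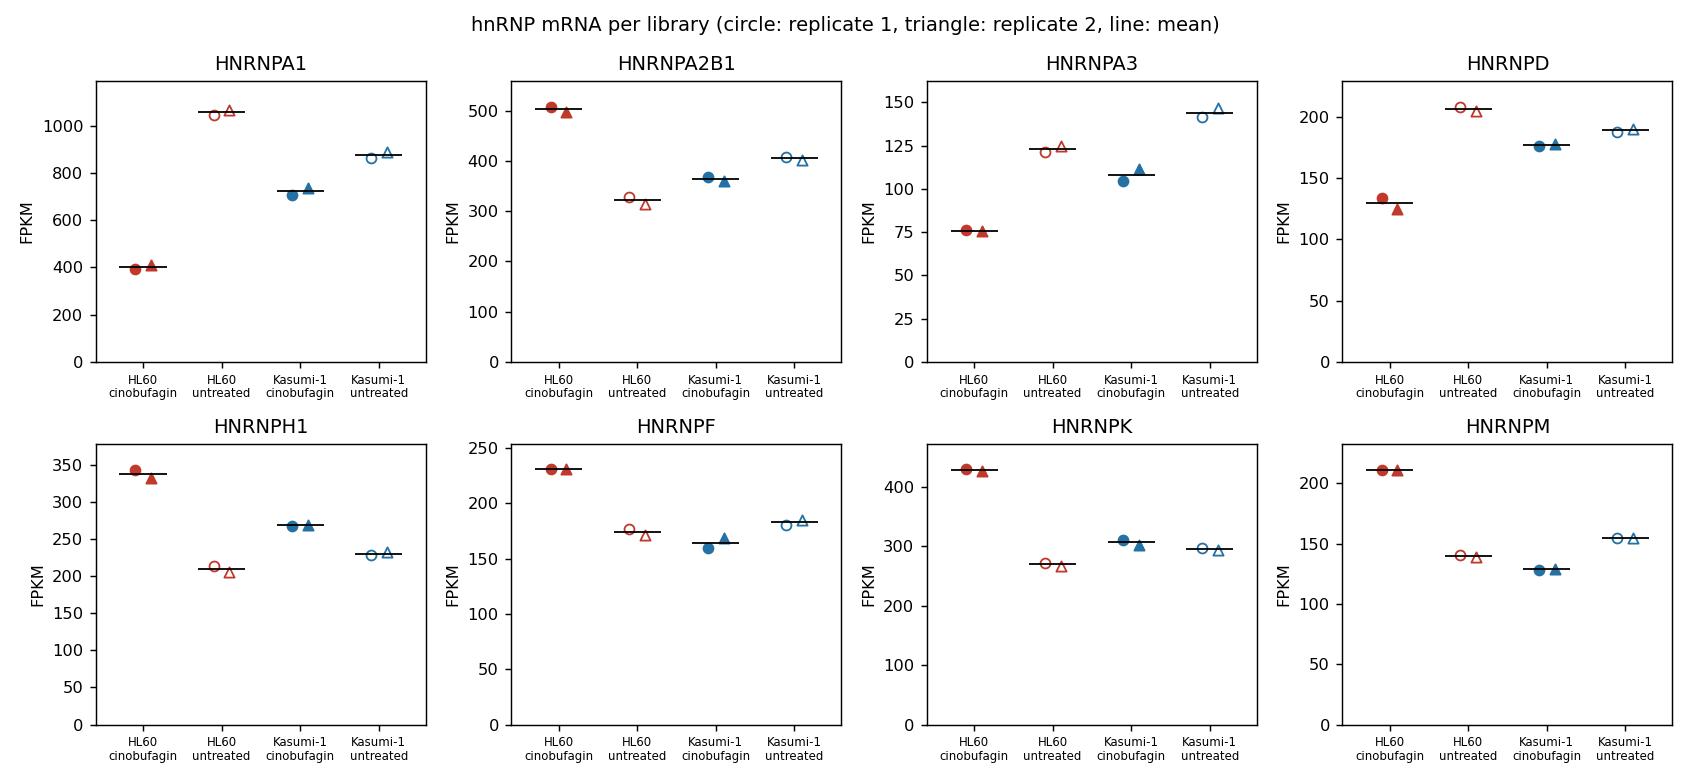
FPKM of 8 hnRNP genes in each library, treated (filled) left of untreated (open), HL60 in red and Kasumi-1 in blue, with group means as lines. HNRNPA1 is at 391.5 and 409.2 FPKM in treated HL60, below HNRNPA2B1 at 508 and 497 FPKM, while in each of the other 3 groups HNRNPA1 is the higher of the pair.

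The response differed between the lines for 25 of the 36 members, or 69.4%, against 63.1% of all tested genes. It was lower in Kasumi-1 than in HL60 for 20 members (55.6%, against 33.1% of all genes) and higher for 5 (13.9%, against 30.1% of all genes), namely HNRNPA1, HNRNPA1L2, HNRNPA3, HNRNPD and SRSF8. Among the 9577 genes that reached 5 FPKM in at least 2 libraries, 68.5% were called, 36.5% as lower and 32.1% as higher. The share of members called was thus near that of genes at this level. Calls in both lines had the same direction for 11 members, namely CLK1, CLK4 and HNRNPH1 upward and HNRNPA1, HNRNPA1L2, HNRNPA3, HNRNPR, SRSF2, SRSF7, SRSF8 and TRA2A downward. CLK2, HNRNPA0 and SRSF11 were called in neither line. Calls in both lines were not counted over all genes, so these counts cannot be read as particular to the members. Across the 36 members the log2 changes of the lines, which come from separate libraries, correlated with Pearson's r of 0.705 and Spearman's rho of 0.637, against 0.292 and 0.404 across all 12511 tested genes. The points of each axis share the same 4 libraries, and genes are not independent. HNRNPA1 and SRSF2 count beside their copies HNRNPA1L2 and SRSF8, which may share their reads. The members are abundant transcripts, and no correlation was computed over other genes of like level. The values therefore do not show that the members are more alike between the lines than such genes.

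**Figure D5:**
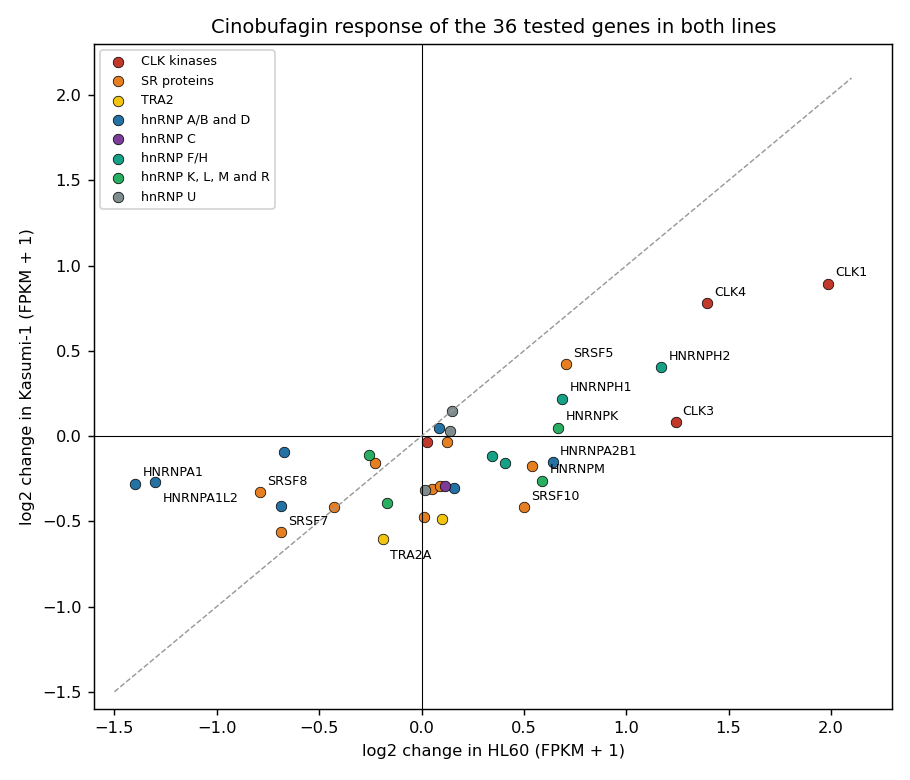
Log2 change in HL60 (horizontal) against log2 change in Kasumi-1 (vertical) for the 36 tested genes, coloured by class, with a dashed line where both are equal. CLK1 and CLK4 lie at the upper right, HNRNPA1 and HNRNPA1L2 at the far left, and SRSF10 and HNRNPM at the lower right, where a rise in HL60 meets a fall in Kasumi-1.

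Before treatment the lines already differed in 19 of 36 members, or 52.8%, against 69.7% of all tested genes, with 11 members higher (35.9% of all genes were) and 8 lower (33.8% of all genes were) in Kasumi-1. HNRNPA0, which binds AU-rich elements, was at 83.9 and 90.6 FPKM in untreated Kasumi-1, against 41.7 and 41.4 FPKM in untreated HL60 (log2 difference 1.05, SE 0.07, limma adjusted p = 1.54e-05). HNRNPUL2 was at 24.5 and 24.7 FPKM in untreated Kasumi-1, against 50.1 and 46.5 FPKM in untreated HL60 (log2 difference −0.94, SE 0.05, limma adjusted p = 6.14e-06). CLK1 was at 66.9 and 55.7 FPKM in untreated Kasumi-1, against 36.7 and 33.4 FPKM in untreated HL60 (log2 difference 0.78, limma adjusted p = 0.0014). These groups did not overlap. The untreated libraries also enter the drug comparisons, so the line differences and the responses are not independent.

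The other called line differences lay between −0.44 (SRSF8) and 0.49 (SRSF5). Of these, the calls for HNRNPH1, HNRNPK and HNRNPM ended without any one of the 4 untreated libraries (0.0657 to 0.169, 0.0851 to 0.136 and 0.0591 to 0.0831), and that for SRSF5 ended without untreated HL60 replicate 2 or untreated Kasumi-1 replicate 1 (0.141 to 0.142). The SRSF9 call ended without any library other than untreated HL60 replicate 2 (0.0514 to 0.219). By level, HNRNPA1, HNRNPA2B1, HNRNPK and HNRNPC led the members, in this order, in untreated Kasumi-1 and in untreated HL60, while HNRNPA2B1 led in treated HL60.

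The older symbols HNRPDL and HNRPLL, which the choice of symbols leaves out, name the D-like and L-like hnRNPs. HNRPDL was at 42.8 and 37.0 FPKM in treated HL60, against 74.7 and 69.8 FPKM in untreated HL60 (log2 change −0.84, limma adjusted p = 0.000144), and fell by 0.37 in Kasumi-1 (limma adjusted p = 0.0264). HNRPLL, chosen after its values were seen, is a regulator of CD45 splicing. It was at 24.84 and 27 FPKM in treated HL60, against 14.5 and 16.2 FPKM in untreated HL60 (log2 change 0.72, limma adjusted p = 0.000281), and stayed between 0.606 and 0.756 FPKM in all Kasumi-1 libraries.

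Genes that act on or beside the members were described by 5 lists. Of 14 tested kinases, phosphatases and import receptors of SR proteins, 7 rose and 3 fell in HL60, with a median of 0.06. That is 71.4% called, near the 73.6% of all genes. DYRK1A, a kinase of splicing factors, was at 27.2 and 29.0 FPKM in treated HL60, against 10.2 and 11.8 FPKM in untreated HL60 (log2 change 1.28), and TOP1, a topoisomerase that can also phosphorylate SR proteins, rose by 0.70, while DYRK1B and DYRK3 fell by 1.14 and 0.82. In Kasumi-1, 0 of these 14 were called by limma, and at an unadjusted p under 0.05 there were 0 higher and 4 lower. Of 28 SR-related proteins, 14 rose and 2 fell in HL60 (median 0.21), and 1 rose and 5 fell in Kasumi-1 (median −0.06). The shares called, 57.1% and 21.4%, were below the 73.6% and 26.3% of all genes. SON, a speckle scaffold, rose in HL60 by 0.85 and RBM23 by 0.73, while RNPS1, of the exon junction complex, and SRRM2, a speckle scaffold, fell by 0.40 and 0.36. In Kasumi-1 PNISR rose by 0.56, and U2AF2, which binds the polypyrimidine tract, and SRRT fell by 0.52 and 0.49. In HL60, SRRT went the other way and rose by 0.43 (limma adjusted p = 0.000157), PNISR rose by 0.80 and U2AF2 was not called. SRRM2 also fell in Kasumi-1, by 0.25.

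Other hnRNP-type and splice regulators rose in 22 and fell in 9 of 43 cases in HL60 (median 0.25), and rose in 6 and fell in 10 in Kasumi-1 (median −0.05). The shares called were 72.1% in HL60, near the 73.6% of all genes, and 37.2% in Kasumi-1, against 26.3%. By direction, 51.2% rose and 20.9% fell in HL60, against 36% and 37.6% of all genes. For Kasumi-1 these shares were 14.0% and 23.3%, against 10.1% and 16.2%. RBM4 was at 143 and 136 FPKM in treated HL60, against 41.9 and 43.4 FPKM in untreated HL60 (log2 change 1.69, limma adjusted p = 9.2e-07). In Kasumi-1 RBM4 rose by 0.19. RBM5, a regulator of apoptotic splice variants, rose in both lines, by 1.17 in HL60 and 0.46 in Kasumi-1. RALY also rose in both, by 0.37 and 0.34, and MATR3 fell in both, by 0.66 and 0.29. SYNCRIP fell by 0.33 in Kasumi-1 and was not called in HL60. Core spliceosome genes were divided, with 18 rises and 19 falls among 48 in HL60 (median −0.08) and 3 rises and 15 falls in Kasumi-1 (median −0.16), or 77.1% and 37.5% called. By direction, 37.5% rose and 39.6% fell in HL60, and 6.2% rose and 31.2% fell in Kasumi-1, beside the same shares of all genes. SF3B4 rose in both lines, by 0.82 in HL60 and 0.27 in Kasumi-1, and so did SF3B2, by 0.19 and 0.37. SNRPB2 rose in HL60 by 0.73 but fell in Kasumi-1 by 0.28 (limma adjusted p = 0.00698). NHP2L1 fell in both lines, by 0.96 and 0.33, while SNRPA fell by 0.90 in HL60 and was not called in Kasumi-1. The tri-snRNP genes PRPF4 and PRPF31 fell by 0.44 and 0.47 in HL60 and by 0.49 and 0.39 in Kasumi-1.

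Of 26 genes of the exon junction complex, nonsense-mediated decay and mRNA export, 13 rose and 8 fell in HL60 (median 0.18), and 2 rose and 4 fell in Kasumi-1 (median −0.06). The shares called, 80.8% and 23.1%, stood beside 73.6% and 26.3% of all genes. NXF1, the main export receptor for mRNA, was at 104 and 91.9 FPKM in treated HL60, against 38.7 and 35.6 FPKM in untreated HL60 (log2 change 1.37, limma adjusted p = 2.24e-05). THOC7 and THOC3, of the THO complex, fell in HL60 by 1.59 and 1.51, and THOC7 fell in Kasumi-1 by 0.29. SMG5, of nonsense-mediated decay, rose in both lines, by 0.79 in HL60 and 0.22 in Kasumi-1, and CASC3 by 0.56 and 0.21. THOC5 and MAGOHB fell in both, by 0.94 and 0.50 in HL60 and by 0.41 and 0.53 in Kasumi-1.

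Promoter sequence was described for the members with an entry in the RefSeq table, 35 of 38 genes with 50 listed starts. The E-box core CACGTG occurred in the 250 bases before 7 of these 50 starts, against 2228 of 35116 windows of the same length (6.34%). Those windows were not limited to genes tested here, and the shares were not compared by a test. The 7 starts belong to 7 different genes. These genes were CLK4, HNRNPH2, HNRNPH3 and HNRNPM, which rose in HL60, HNRNPA3 and HNRNPD, which fell, and CLK2, which was not called. A match is a stretch of letters and was not tested as a binding site.

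The windows of HNRNPM, which rose in HL60, and of HNRNPD and HNRNPA3, which fell, are printed as examples that hold CACGTG, in capitals. They were chosen after the data were seen, and a link between these letters and the changes was not tested. CACGTG begins 42, 27 and 71 bases before the start in these windows. On GRCh38.p14 they lie at chr19:8444725-8444974 (plus strand), chr4:82373992-82374241 (minus strand) and chr2:177212544-177212793 (plus strand).
HNRNPM: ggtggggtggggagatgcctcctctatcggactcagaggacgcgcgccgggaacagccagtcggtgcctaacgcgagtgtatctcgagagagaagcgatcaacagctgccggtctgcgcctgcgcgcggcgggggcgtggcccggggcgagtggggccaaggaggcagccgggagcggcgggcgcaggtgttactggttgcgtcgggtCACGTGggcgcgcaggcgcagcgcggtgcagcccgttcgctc
HNRNPD: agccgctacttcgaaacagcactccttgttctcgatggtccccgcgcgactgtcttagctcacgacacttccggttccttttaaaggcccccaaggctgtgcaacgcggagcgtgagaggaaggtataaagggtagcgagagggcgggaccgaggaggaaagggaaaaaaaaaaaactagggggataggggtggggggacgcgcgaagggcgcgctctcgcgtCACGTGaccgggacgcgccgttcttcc
HNRNPA3: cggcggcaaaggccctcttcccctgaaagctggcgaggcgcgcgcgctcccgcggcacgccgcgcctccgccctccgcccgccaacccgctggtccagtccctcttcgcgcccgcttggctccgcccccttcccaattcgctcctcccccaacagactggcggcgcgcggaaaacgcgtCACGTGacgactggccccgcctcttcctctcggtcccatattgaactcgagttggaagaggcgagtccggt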

How the data were processed

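RNA sequencing libraries (TruSeq Stranded mRNA kit, per the labels' protocols) of 8 samples were used as deposited. The authors deposited 1 table of FPKM values per gene and library. The submitters' processing notes list Cufflinks 2.2.1, HISAT2 2.1.0, bcl2fastq 2.20.0 and build hg19. The annotation and the strand setting were not given in the sources used here. Without read totals the depth is unknown and no counting interval was set, and overlapping and copied genes may share reads. From these values log2(FPKM + 1) was tested with limma 3.58.1 in R 4.3.3, with 1 mean per group over all 8 libraries (4 residual degrees of freedom), an intensity trend and Benjamini-Hochberg adjustment over the 12511 genes that reached 1 FPKM in 2 or more libraries. An adjusted p under 0.05 is a call. Counts at an unadjusted p under 0.05 or at 2-fold were made without a share over all genes beside them. Changes on this scale understate those of low genes. No permutation test was used, since with groups of 2 its smallest two-sided p is 0.33. The fit was also run on simulated data with independent noise in each library. That noise leaves out the shared deviations of same-numbered libraries, so the run does not cover them. Promoter motif CACGTG was searched after the data were seen. Every tested member is named. From each of 5 lists up to 2 genes per direction and line are named, by smallest adjusted p among called genes whose treated and untreated libraries do not overlap. Some genes that these rules name are not reported here. Members, lists and tests were chosen with earlier results of these data known.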

Additional observations from a re-analysis of the deposited data

Results flagged for a closer look

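For 25 members (69.4%) the response to cinobufagin differed between the lines by the interaction test (limma adjusted p under 0.05). The share was 63.1% over all tested genes and 68.5% over those that reached 5 FPKM in at least 2 libraries. The values here are the log2 change in Kasumi-1 minus that in HL60.

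Among the kinases the differences were −1.09 for CLK1, −1.16 for CLK3 and −0.61 for CLK4. Among SR and TRA2 genes they were −0.36 for SRSF1, −0.49 for SRSF3, −0.71 for SRSF4, 0.46 for SRSF8, −0.38 for SRSF9, −0.92 for SRSF10, −0.42 for TRA2A and −0.58 for TRA2B.

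Among the A/B and D type hnRNPs they were 1.12 for HNRNPA1, 1.03 for HNRNPA1L2, −0.79 for HNRNPA2B1, 0.28 for HNRNPA3, −0.46 for HNRNPAB and 0.58 for HNRNPD. Among the other hnRNPs they were −0.41 for HNRNPC, −0.56 for HNRNPF, −0.47 for HNRNPH1, −0.46 for HNRNPH3, −0.62 for HNRNPK, −0.85 for HNRNPM, −0.23 for HNRNPR and −0.33 for HNRNPU. The calls for SRSF1 ended without any of the 4 HL60 libraries, treated Kasumi-1 replicate 1 or untreated Kasumi-1 replicate 2 (0.0558 to 0.082), and that for HNRNPU without either treated HL60 library, untreated HL60 replicate 1 or untreated Kasumi-1 replicate 2 (0.0518 to 0.0664). After quantile normalization the values were −0.13 for HNRNPR, −0.25 for SRSF9, −0.18 for HNRNPU and −0.24 for SRSF1, and none of these was called (limma adjusted p = 0.0925, 0.0657, 0.204 and 0.117). Equal sum rescaling also ended the calls for HNRNPU and SRSF1 (0.0732 and 0.0798). The call for HNRNPA3 ended without untreated HL60 replicate 2 (0.0505).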

How the results depend on the processing

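Each called change of a member was recomputed under alternatives of the processing. The filters, the intensity trend, the replicate block and the fit of each line alone leave the estimated change as it is. So does leaving out a library that is not part of the comparison, and direction could not change in these cases. Up to 17 alternatives were used for each call, among them 8 that leave out 1 library each. Direction was kept in all of them, and 118 values no longer passed, against 1387 that did. Calls that passed under every alternative numbered 20 of 26 in HL60, 8 of 20 in Kasumi-1, 20 of 25 for the difference in response and 14 of 19 between untreated lines. Of 54 changes that were not called, 23 changed sign under some alternative, and 0 of these was called with the other sign. With each line fitted alone, which leaves fewer libraries for the spread, 7 members fell in Kasumi-1 and 1040 genes were called there; this fit gives no difference in response. Without 1 library, Kasumi-1 had 2 to 3 rises and 12 to 16 falls of members and 1654 to 2738 genes called, HL60 12 to 15 rises, 8 to 11 falls and 8317 to 9232 genes. For the difference in response there were 4 to 5 higher and 18 to 20 lower members and 7017 to 7613 genes, and between untreated lines 6 to 10 higher and 8 to 9 lower members and 7764 to 8737 genes. Same-numbered libraries of different groups deviated together (r between 0.125 and 0.331 over 12511 genes, and between 0.274 and 0.431 over the 12235 that are not short RNAs), but 2 numbers do not establish pairs. With a replicate block, 5 members rose and 23 fell in Kasumi-1, where 4749 of all genes were called against 3292 without it, and 18 rose and 11 fell in HL60, with 9787 against 9212 genes. No member call was lost. SRSF5 and HNRNPUL2 joined the rises in Kasumi-1 (limma adjusted p = 0.000748 and 0.0381), and HNRNPA2B1, HNRNPF, HNRNPH3, HNRNPL, SRSF4 and SRSF6 the falls (0.0106 to 0.04). In HL60, HNRNPAB, HNRNPC and SRSF11 joined the rises (limma adjusted p = 0.007, 0.00882 and 0.0366). The difference in response was also called for SRSF5, SRSF7, HNRNPH2 and HNRNPL (0.00141 to 0.0409). After median ratio rescaling 19 members rose and 9 fell in HL60, and 51.7% of the calls over all genes were rises, against 48.9%. Rescaling shifted the median over all genes by less than 0.1 (log2) in each contrast.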
